A study of Mus musculus with 3 samples.

Results

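RNA of endothelial cells made from mouse embryonic stem cells labelled Gata1&2KO was compared with RNA of endothelial cells made in the same way from wild type (WT) stem cells. The comparison uses 2 of the series' 3 libraries, 1 a side, and the 10762 of 23397 genes that had an FPKM of at least 1 in either library and a summed exon length of at least 300 nt. FPKM is the number of fragments per kilobase of transcript, scaled to the library's number of mapped fragments. Both stem cell lines were kept in serum with LIF, the cytokine that holds mouse stem cells undifferentiated. They then passed through a pre-culture and became embryoid bodies, floating aggregates in which stem cells differentiate. At day 4.75 the bodies were dissociated with collagenase and dispase, and cells positive for Tie2 (gene Tek) and CD31 (Pecam1) and negative for CD41 (Itga2b) were sorted. The gene pair is targeted in the labels of 1 library, called here the library labelled Gata12KO, and neither is targeted in WT. The third library, from cells lacking Scl, is named beside these 2 where its value helps. The sources used here do not give how the alleles were made or whether each line is 1 clone.

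GATA1 and GATA2 are zinc finger transcription factors that bind GATA motifs and sit in a complex with SCL (gene Tal1), LMO2 and LDB1. GATA2 acts in blood stem and progenitor cells and in endothelium, and GATA1 takes over in red cells and megakaryocytes. Definitive blood progenitors of the embryo come from endothelium that begins to express RUNX1, called hemogenic endothelium, and CD41 is among the first surface proteins of the blood cells that leave it.

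For each gene the ratio is log2((FPKM + 1) of the library labelled Gata12KO over that of WT), with the trend of the ratio on transcript length removed. A positive ratio means a higher level in the library labelled Gata12KO than the trend gives for a gene of that length. It can go with a lower FPKM, as for Ppia, at 642 FPKM in WT and 571 in that library (ratio 0.43). The added 1 makes ratios of low genes smaller. A gene is called higher or lower when the ratio reaches 2-fold in size and the 2 intervals between its deposited bounds do not overlap. For most entries of at least 100 reads the width of the bounds varies as Poisson counting error does. It was taken as 2 standard deviations to either side of the FPKM, a factor that was assumed and not measured. For a gene of several entries the bounds are summed, which makes its interval wider than that. With 1 library a side there is no replicate check, the bounds cover counting error only, and no call can be set against the spread between cultures. By this rule 145 genes, 1.35% of those compared, were called higher and 166 genes, 1.54%, lower, so that 2.89% were called in either direction. Counts of calls in the lists below are to be read beside these shares. The median ratio was -0.00, 49.7% of ratios were positive, and 86.9% of genes lay within 1.5-fold. Among genes closest to the limit, Pld5 at -1.002 and Tnfsf9 at 1.004 were just inside, and Pdgfra at -0.997 and Aqp11 at 0.998 just outside.

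**Figure D1:**
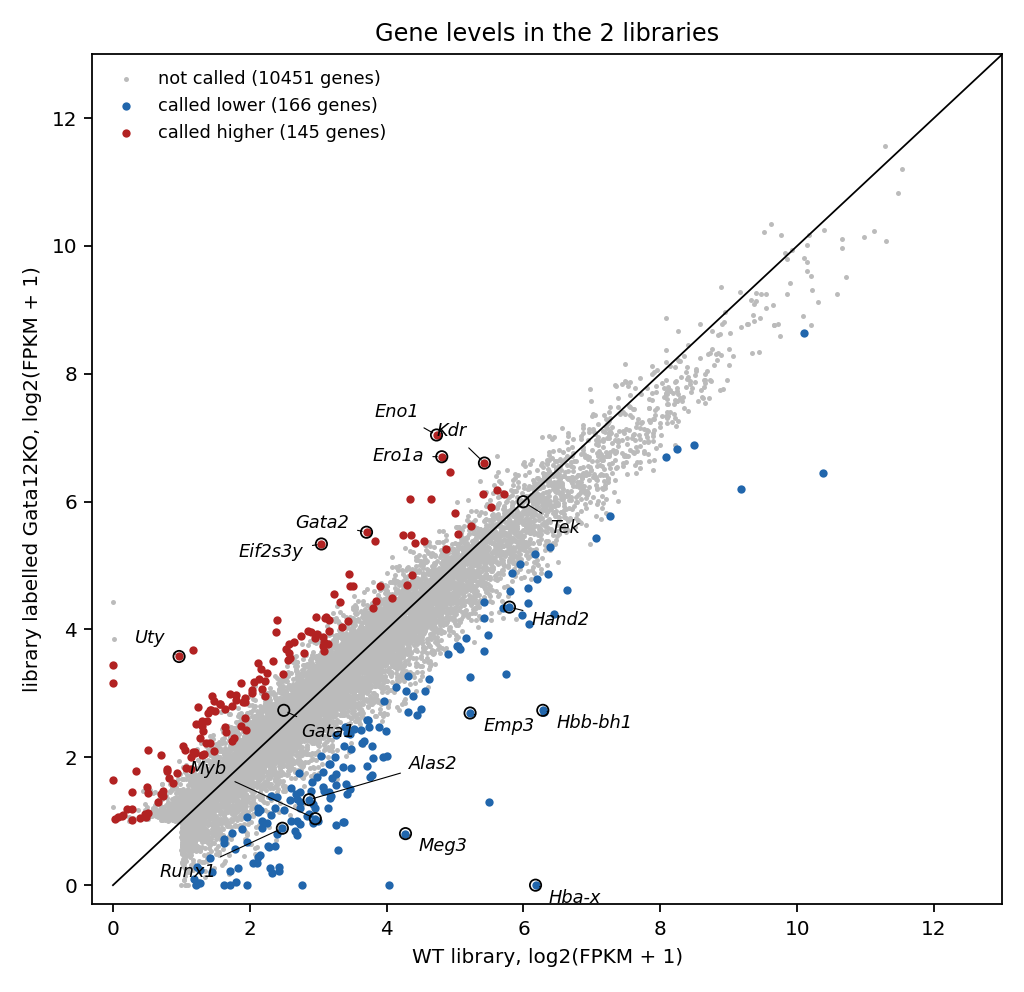
Level of each of 10762 genes in WT (horizontal axis) and in the library labelled Gata12KO (vertical axis), both as log2(FPKM + 1), with 145 genes called higher in red and 166 called lower in blue. Gata2 and Kdr sit above the diagonal, Tek on it, and Hba-x, Hbb-bh1, Myb and Runx1 below it.

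Taken as 2 Poisson standard deviations, the bounds imply a depth of about 31600000 mapped fragments for WT and 50300000 for the library labelled Gata12KO. Before the trend was removed the ratio depended on length: the median was -0.48 over genes of 312 to 1525 nt and 0.13 over genes of 4574 to 23495 nt, against -0.00 in each after it was removed. All 6 endothelial markers (Cdh5, Pecam1, Tek, Tie1, Kdr and Emcn) had an FPKM of at least 1 in both libraries. They summed to 343 FPKM in WT against 431 in the library labelled Gata12KO. Tek and Pecam1 encode the antigens the cells were sorted for, so their presence follows from the sort. Cdh5, Tie1, Kdr and Emcn fit the labelled cell type without that limit. Markers of 7 other types, 4 to 8 a type, had lower sums. In WT these ran from 2.94 for visceral endoderm to 180 for red cells, and in the library labelled Gata12KO from 1.81 to 18.9. Of these the red cell markers moved most, from 180 to 9.03, with Hba-x and Slc4a1 listed at 0 in the library labelled Gata12KO. Gene positions are on mm9, as in the files.

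**Figure D2:**
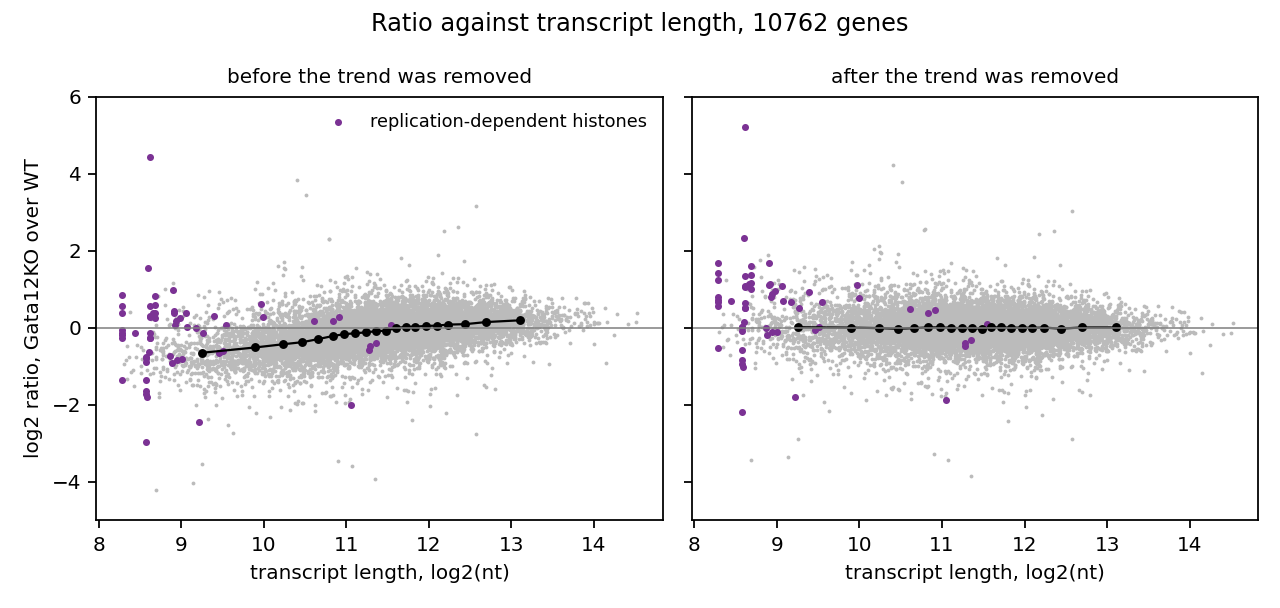
Ratio of each gene against transcript length (log2 of nt) before the length trend was removed (left) and after (right); black points join the medians of 20 length classes and purple points are replication-dependent histone genes. Medians of short genes lie below 0 on the left and at 0 on the right, while the histone genes lie near 0 on the left (median -0.02) and above 0 on the right (median 0.66).

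The targeted genes were not lower in the library labelled Gata12KO. Gata1 (chrX:7536386-7544941, minus strand, 6 exons) had an FPKM of 4.64 in WT (bounds 4.04 to 5.25) and 5.66 in the library labelled Gata12KO (bounds 5.13 to 6.18). Its bounds overlap, and its ratio was 0.47. Gata2 (chr6:88148658-88157026, plus strand, 6 exons) had an FPKM of 12.05 in WT (11.3 to 12.8) and 44.9 in the library labelled Gata12KO (43.9 to 46.0), a 3.73-fold higher level with a ratio of 1.82. In the third library Gata1 was listed at 0 and Gata2 at 5.81 FPKM. An FPKM is counted over the whole transcript, and the sources used here do not say which exons the alleles remove, so a level neither shows nor excludes a deletion inside a gene that is still transcribed. The genotype therefore rests on the label, and each direction given here is that of the library so labelled.

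Of the 8 GATA and FOG genes, with a median ratio of 0.18, Gata2 was the one called; FOG proteins are cofactors that bind GATA proteins. Gata3 had an FPKM of 6.09 in WT against 4.37 in the library labelled Gata12KO, with a ratio of -0.40. Gata4, a heart and endoderm factor, was at 5.57 and 8.60 FPKM, with a ratio of 0.54. Gata6 was at 17.0 and 18.2 FPKM and Gata5 at 0.772 and 1.13 FPKM. These 4 factors thus lay within 2-fold of WT. Zfpm1, which encodes FOG1, the partner of GATA1, was at 18.1 and 13.7 FPKM (ratio -0.39), and Zfpm2 at 3.99 and 3.42 FPKM (ratio -0.26). Zfpm1 lies on chromosome 8, where the 50 nearest genes had a median ratio of -0.28 (values by chromosome are given further on).

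None of 14 genes of the SCL complex and its partners was called, and their median ratio was -0.03. Tal1, which encodes SCL itself, had an FPKM of 51.0 in WT (49.7 to 52.3) and 38.7 in the library labelled Gata12KO (37.8 to 39.6), against 1.59 in the library from cells lacking Scl. Lmo2 was at 102 and 64.3 FPKM, with a ratio of -0.34. Ldb1, the protein that bridges the complex, was at 10.2 and 14.5 FPKM, with a ratio of 0.62, and the E protein gene Tcf12 at 10.1 and 17.3 FPKM, with a ratio of 0.65. The sorted antigens stayed close too: Tek was at 62.9 FPKM in both libraries and Pecam1 at 48.3 and 66.5 FPKM. Itga2b, whose protein the sort selected against, was at 22.8 FPKM in WT, 17.6 in the library labelled Gata12KO and 0.333 in the third library.

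Several factors that start the blood program were called lower. Of 22 listed factors 15 passed the minimums, and 7 were called lower and none higher, with a median ratio of -1.07. Myb, needed for definitive blood progenitors, had an FPKM of 6.77 in WT against 1.06 in the library labelled Gata12KO, a ratio of -1.93. Spi1, the myeloid and lymphoid factor PU.1, was at 6.58 and 0.954 FPKM (ratio -1.58). Nfe2, a factor of red cells and platelets, was at 8.60 and 1.96 FPKM (ratio -1.42). All 3 were lower again in the library from cells lacking Scl, at 0.143, 0.0312 and 0.217 FPKM. Gfi1b, a repressor that turns off endothelial genes as blood cells form, was at 3.34 and 0.358 FPKM (ratio -1.42). Myct1, a membrane protein gene of endothelium and blood progenitors, was at 23.6 and 8.31 FPKM (ratio -1.34), and Ikzf1 at 1.68 and 0.344 FPKM (ratio -1.07). The call of Ikzf1 was lost without the length trend.

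The other 8 factors were not called. Meis1 had an FPKM of 5.96 and 2.29 and a ratio of -1.09, but its WT bounds were wide (2.25 to 12.2) and overlap those of the other library. Cbfb, the partner of RUNX1, was at 69.8 and 53.5 FPKM on chromosome 8, Mecom at 5.68 and 7.84 FPKM, and Hhex, an endothelial and blood factor, at 37.9 and 35.8 FPKM. In sorted bulk cells, fewer cells of a kind and less RNA in each cell cannot be told apart.

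Runx1 (chr16:92601711-92826311 over all its entries, minus strand) is listed as 4 entries from 2 starts. Summed, it had an FPKM of 4.56 in WT against 0.854 in the library labelled Gata12KO, a ratio of -1.73. The 2 entries that begin at the distal start summed to 2.58 FPKM in WT and were listed at 0 in the library labelled Gata12KO and in the third library. The 2 entries that begin at the proximal start summed to 1.98 FPKM in WT, 0.854 in the library labelled Gata12KO and 0.452 in the third. The entries share most of their exons, so how the deposited FPKM is divided among them is uncertain, and the sum is the firmer value.

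Most globin genes were called lower. Of 7 globin genes past the minimums, 6 were called lower, with a median ratio of -1.74. Hba-x (chr11:32176600-32178115, plus strand, 3 exons), the zeta globin of the first red cells, had an FPKM of 71.3 in WT (66.6 to 76.0) and was listed at 0 in the library labelled Gata12KO. Both of its bounds there were also 0, and whether this 0 stands for absent RNA was not tested. In the third library it was at 0.0881 FPKM. Hbb-bh1 (chr7:110990152-110991676), an embryonic beta-like globin, was at 76.8 FPKM (72.1 to 81.6) and 5.66 (4.65 to 6.67), which is 13.6-fold lower. Hba-a2, an alpha globin, was at 15.4 FPKM in WT against near 0 in the library labelled Gata12KO. Among the beta globins Hbb-bs was at 9.32 and 0.990 FPKM, Hbb-bt at 7.97 and 1.58 FPKM, and Hbb-y at 7.89 and 1.76 FPKM. Copies of globin genes are nearly identical in sequence, so the division of reads among them is uncertain. In the third library Hba-a2, Hbb-bs, Hbb-bt and Hbb-y were listed at 0, and Hbb-bh1 was at 0.258 FPKM.

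Of 9 genes of heme synthesis 1 was called, and the median ratio was -0.07. That gene was Alas2, the red cell form of the first enzyme of the pathway, at 6.30 FPKM in WT (bounds reaching down to 5.63) and 1.53 in the library labelled Gata12KO (1.15 to 1.91), a ratio of -1.35. Its housekeeping counterpart Alas1 was at 8.30 and 9.67 FPKM, and Fech, which inserts the iron, at 18.8 and 12.9 FPKM. Of 11 genes of the red cell membrane and iron uptake, 2 were called lower, with a median ratio of -0.43. The coactivator gene Cited4, called lower, was at 3.32 and 0.273 FPKM (ratio -1.36). Epor, the erythropoietin receptor, was at 4.41 and 2.44 FPKM and was not called, and Tfrc, the transferrin receptor of all dividing cells, was at 10.7 and 16.6 FPKM.

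The start regions of 3 of these genes are shown because GATA factors are known to bind AGATAA, its variants that begin with T (TGATAA) or end in G (AGATAG), and the variant that does both (TGATAG) in red cell promoters. Each is 250 bases before to 50 bases after the RefSeq start on GRCm38.p6, read in the direction of the gene, with matches to these letters on either strand in capitals. They are chr11:32276350-32276649 (Hba-x), chr11:32296242-32296541 (Hba-a2) and chrX:150547167-150547466 (Alas2).
Hba-x: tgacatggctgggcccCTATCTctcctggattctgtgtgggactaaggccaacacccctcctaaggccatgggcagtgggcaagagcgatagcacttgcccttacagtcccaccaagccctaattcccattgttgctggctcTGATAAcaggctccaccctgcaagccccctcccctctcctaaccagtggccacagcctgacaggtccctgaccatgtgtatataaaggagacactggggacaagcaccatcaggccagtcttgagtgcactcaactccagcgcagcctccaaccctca
Hba-a2: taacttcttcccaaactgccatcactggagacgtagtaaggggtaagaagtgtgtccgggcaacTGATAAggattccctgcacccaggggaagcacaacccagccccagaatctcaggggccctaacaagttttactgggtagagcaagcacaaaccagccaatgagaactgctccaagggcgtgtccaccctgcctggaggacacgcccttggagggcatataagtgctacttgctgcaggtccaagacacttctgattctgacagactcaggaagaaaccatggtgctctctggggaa
Alas2: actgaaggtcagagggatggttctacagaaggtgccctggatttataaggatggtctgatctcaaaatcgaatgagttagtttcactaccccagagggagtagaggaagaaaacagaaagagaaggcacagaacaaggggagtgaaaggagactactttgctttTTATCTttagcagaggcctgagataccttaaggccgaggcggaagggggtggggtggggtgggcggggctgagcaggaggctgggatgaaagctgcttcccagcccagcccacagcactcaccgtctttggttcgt
The Hba-x window holds 2 matches and those of Hba-a2 and Alas2 hold 1 each. These 3 were printed because they hold a match, as does the window of Hbb-bs, while the windows of Cited4, Myb and Runx1 held none. Among the 5 globin windows RefSeq gave, 4 held a match, as did 8 of 22 windows of the known GATA1 or GATA2 targets. The share was 29.8% over all 32851 windows of the table and 17.6% over windows of genes past the minimums. It was 24.2% over genes called lower and 21.8% over genes called higher. A match is a description of the letters and no evidence of binding.

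Of 10 genes of megakaryocytes and platelets past the minimums, 5 were called lower and none higher, with a median ratio of -1.06. Plek, a major platelet kinase substrate, had an FPKM of 3.14 in WT against 0.267 in the library labelled Gata12KO (ratio -1.76). Clec1b, a platelet surface receptor, was at 6.56 and 1.42 FPKM (ratio -1.18), and Rab27b, a GTPase of granule release, at 1.40 and 0.173 FPKM (ratio -1.18). The chromosome 8 gene F10, coagulation factor X, was at 11.7 and 3.77 FPKM (ratio -1.32), and it was not called relative to its 50 nearest genes, whose median was -0.36. The platelet chemokine gene Pf4 was at 2.99 and 0.567 FPKM with a ratio of -0.69, which is not called. Over the 5 platelet markers the summed FPKM was 27.7 in WT and 18.9 in the other library, and most of it in both is Itga2b.

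Of 14 leukocyte and myeloid genes, 4 were called lower and 1 higher, with a median ratio of -0.74. Cd34, a surface protein of blood progenitors and of endothelium, had an FPKM of 18.9 in WT (17.3 to 20.6) and 5.50 in the library labelled Gata12KO (4.83 to 6.17), a ratio of -1.51, and 5.61 in the third library. Mpo, the granule peroxidase of myeloid progenitors, was at 10.2 and 3.37 FPKM (ratio -1.26). Alox5ap, needed for leukotriene synthesis, was at 21.8 and 5.79 FPKM (ratio -1.20), and Arhgdib at 43.6 and 14.1 FPKM (ratio -1.11). The exception was Lcp1, the actin bundling protein L-plastin, at 3.47 and 9.37 FPKM (ratio 1.17). Ptprc, the pan-leukocyte CD45 gene, was listed at 0 in WT, and the 5 leukocyte markers summed to 20.4 FPKM in WT against 7.41 in the library labelled Gata12KO. Kit, the stem cell factor receptor, was at 20.1 and 27.4 FPKM and was not called. Of 15 cytokine receptor and signalling genes 1 was called, on the lower side, with a list median of -0.40.

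Across 23 genes known as GATA1 or GATA2 targets, a list that shares members with those above, 8 were called lower and 2 higher, with a median ratio of -0.44. Edn1, the endothelial peptide endothelin, whose promoter GATA2 is known to bind, had an FPKM of 7.45 in WT (6.79 to 8.11) and 1.78 in the library labelled Gata12KO (1.52 to 2.03), a ratio of -1.49. The 2 higher members were Gata2 itself and Kdr. Prox1 was at 5.13 and 3.13 FPKM, Emcn at 9.72 and 7.69 FPKM, Fli1 at 39.5 and 44.8 FPKM and Lyl1, the SCL relative, at 21.3 and 17.5 FPKM. None of these 4 was called.

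**Figure D3:**
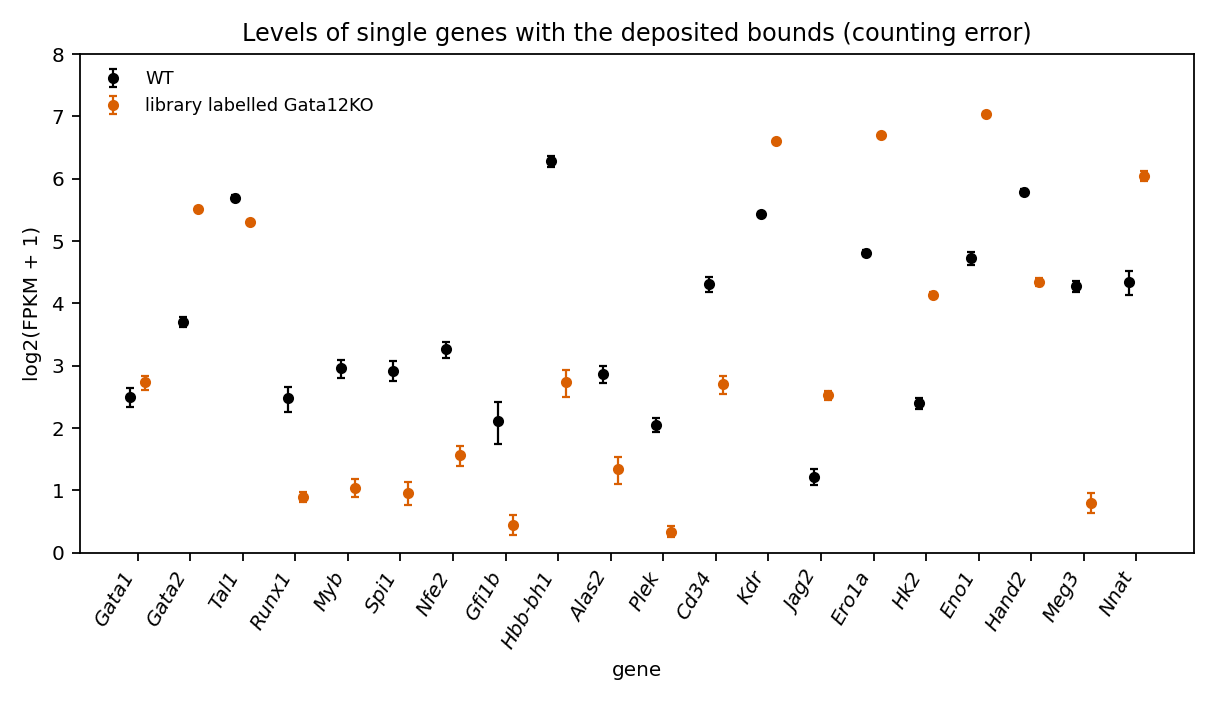
Level of 20 genes as log2(FPKM + 1) in WT (black) and in the library labelled Gata12KO (orange), with bars for the deposited bounds, which cover counting error only; 1 library a side. Gata1 overlaps between the libraries, Gata2, Kdr, Jag2, Ero1a, Hk2, Eno1 and Nnat are higher in the library labelled Gata12KO, and the blood genes from Runx1 to Cd34, with Hand2 and Meg3, are lower.

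Most endothelial identity genes were within 2-fold of WT. Of 33 pan-endothelial genes past the minimums 1 was called, 25 had a positive ratio, and the median was 0.22. The called gene was Kdr (chr5:76329299-76374453, minus strand, 30 exons), the main VEGF receptor, at 42.1 FPKM in WT (41.1 to 43.1) and 96.3 in the library labelled Gata12KO (95.1 to 97.5), which is 2.29-fold higher with a ratio of 1.07. In the third library Kdr was at 31.6 FPKM. The second VEGF receptor Flt1 was at 8.72 and 19.6 FPKM (ratio 0.95) and Calcrl, the adrenomedullin receptor, at 18.2 and 37.6 FPKM (ratio 0.94), both just under the limit. Cdh5, the endothelial cadherin, was at 116 and 141 FPKM and Tie1 at 64.2 and 56.4 FPKM. Etv2, the factor that starts the endothelial lineage, was at 49.0 and 38.7 FPKM (ratio 0.14), Erg at 7.91 and 8.09 FPKM and Ets1 at 15.8 and 30.6 FPKM (ratio 0.84). Robo4 went the other way, at 3.27 and 1.30 FPKM (ratio -0.92), and was not called. Of 19 genes of VEGF, angiopoietin and apelin signalling, Kdr was the called one, with Vegfa at 46.5 and 76.0 FPKM (ratio 0.68) and its coreceptor Nrp1 at 56.4 and 38.0 FPKM (ratio -0.68).

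Of 19 arterial and Notch genes 2 were called higher and none lower. Their ratios were positive for 16, against 49.7% over all genes, and the median was 0.55. Jag2, a Notch ligand, had an FPKM of 1.32 in WT against 4.76 in the library labelled Gata12KO (ratio 1.26). Foxc2, a factor of arterial and lymphatic vessels, was at 1.97 and 6.14 FPKM (ratio 1.33), and its 50 nearest genes on chromosome 8 had a median of -0.25. The Notch target Hey1 was at 4.27 and 8.47 FPKM (ratio 0.98), Notch4 at 1.34 and 3.36 FPKM (ratio 0.76), Sox17 at 4.34 and 7.93 FPKM (ratio 0.76) and the ligand Dll4 at 1.20 and 2.25 FPKM (ratio 0.55). These were not called, and Efnb2, an arterial ephrin, was level at 10.6 and 10.7 FPKM. On the venous side 1 of 10 genes was called: Nr2f2, the venous nuclear receptor COUP-TFII, at 4.07 and 10.3 FPKM (ratio 1.11). Ephb4, the venous ephrin receptor, was at 10.4 and 18.9 FPKM (ratio 0.75). Jag2 and Nr2f2, an arterial and a venous regulator, were thus both called higher, and the venous list's median was 0.10.

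Of 11 endocardial genes, 1 was called: Nrg1, the endocardial ligand that signals to heart muscle, at 2.87 and 0.605 FPKM (ratio -1.12). It lies on chromosome 8 and was not called relative to its 50 nearest genes, whose median was -0.34. Nfatc1, the endocardial transcription factor, was at 13.7 and 22.2 FPKM (ratio 0.58), and Hapln1, a matrix link protein, at 64.0 and 93.1 FPKM (ratio 0.45).

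Heart and mesenchyme genes were mixed. Of 15 cardiac factors 2 were called lower, with a median of -0.08. Hand2, a factor of heart and limb mesenchyme, had an FPKM of 54.5 in WT (52.7 to 56.4) and 19.4 in the library labelled Gata12KO (18.5 to 20.2), a ratio of -1.32, and 43.1 in the third library. Hand2 lies on chromosome 8, where its 50 nearest genes had a median of -0.32, and relative to them it was not called. Tbx2, a repressor of chamber muscle genes, was at 3.97 and 1.15 FPKM (ratio -1.23), while the related Tbx3 was at 4.93 and 10.5 FPKM (ratio 0.87). Hand1 was level at 72.2 and 61.7 FPKM (ratio -0.02).

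Among 14 contractile genes, 2 smooth muscle genes were called lower: Tpm2, a tropomyosin, at 14.4 and 3.04 FPKM (ratio -1.78) and Acta2, smooth muscle actin, at 42.1 and 11.7 FPKM (ratio -1.52). Myl9, a myosin light chain outside that list, was at 8.57 and 0.911 FPKM (ratio -1.86). The atrial light chain gene Myl7 was called higher at 2.11 and 4.56 FPKM (ratio 1.50), a call that was lost without the length trend. Of 28 mesenchyme and matrix genes, 3 fibrillar collagen genes were called lower, with a list median of -0.31. Col5a2 was at 5.68 and 1.31 FPKM (ratio -1.67), Col1a2 at 11.3 and 4.397 FPKM (ratio -1.28) and Col1a1 at 9.66 and 4.19 FPKM (ratio -1.11). The basement membrane collagens Col4a1, at 56.7 and 61.7 FPKM, and Col4a2, at 46.4 and 46.5 FPKM, were level. Foxf1, a mesoderm factor, was called higher at 0.722 and 2.53 FPKM (ratio 1.50). The 4 mesenchyme markers (Pdgfra, Pdgfrb, Col1a1 and Col3a1) summed to 18.0 FPKM in WT against 10.1 in the library labelled Gata12KO. Col1a1 is also among the called collagen genes, so the sum is no separate measure of mesenchymal cells. The part of such cells in the collagen values was not tested.

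**Figure D4:**
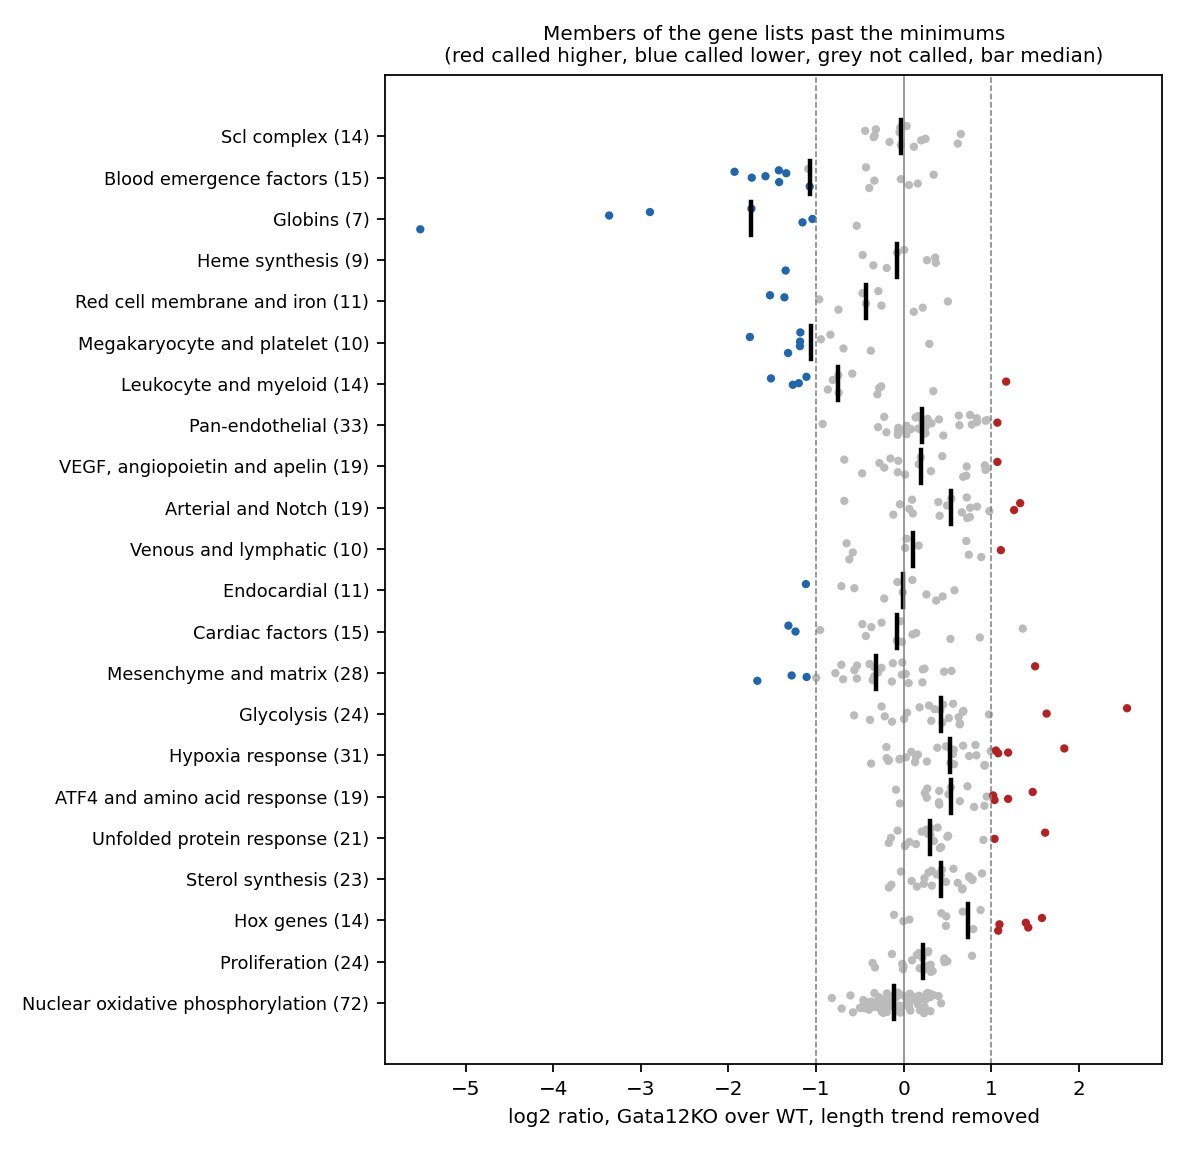
Ratio of each member past the minimums for 22 gene lists, with the number of members in brackets; red points are called higher, blue points called lower, grey points not called, black bars mark the list's median and dashed lines a 2-fold difference. Blood lists lie to the left of 0 (globin median -1.74, blood emergence factors -1.07), and Notch, glycolysis, hypoxia and Hox lists to the right (0.55, 0.43, 0.54 and 0.74).

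Of 31 genes of the hypoxia response 4 were called higher, none was called lower and 27 were not called. Their ratios were positive for 24 and negative for 7, with a median of 0.54, and with a pseudocount of 5 the called genes fell to 1. Ero1a (chr14:45902762-45938247, minus strand, 16 exons), the enzyme that oxidises disulphide bonds in the endoplasmic reticulum, had an FPKM of 27.0 in WT (26.1 to 27.9) and 103 in the library labelled Gata12KO (102 to 104). That is 3.82-fold, with a ratio of 1.84, and its 50 nearest genes on chromosome 14 had a median of 0.28. Stc2, a secreted glycoprotein hormone, was at 4.88 and 10.4 FPKM (ratio 1.19), a call lost without the length trend. Ak4, a mitochondrial adenylate kinase, was at 4.79 and 11.9 FPKM (ratio 1.08), and Plod2, a collagen lysyl hydroxylase, at 7.58 and 17.2 FPKM (ratio 1.06), lost relative to its 50 nearest genes. Vegfa, Adm and Ddit4, also known hypoxia targets, had ratios of 0.68, 0.93 and 0.92. The factors themselves were level, with Hif1a at 45.3 and 42.1 FPKM and Epas1 at 21.5 and 17.6 FPKM.

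Of 24 glycolysis genes 2 were called higher, none was called lower and 22 were not called. Their ratios were positive for 19, with a median of 0.43. Hk2, the inducible hexokinase, had an FPKM of 4.29 in WT (3.97 to 4.61) and 16.7 in the library labelled Gata12KO (16.2 to 17.2), a ratio of 1.63, while the constitutive Hk1 was at 15.6 and 12.2 FPKM (ratio -0.38). Eno1, an enolase, was at 25.5 and 131 FPKM (ratio 2.55) and at 174 in the third library, so that WT was the low one of the 3. Eno1 has near-identical copies in the genome and its value is uncertain. Ldha, at 872 and 1148 FPKM, Pdk1, at 26.3 and 45.4 FPKM, and the lactate exporter Slc16a3, at 15.1 and 28.4 FPKM, had ratios of 0.68, 0.68 and 0.98 and were not called. Gapdh was at 1133 and 778 FPKM (ratio -0.13).

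The start regions of Ero1a, Hk2 and Ak4 are shown because the hypoxia factors are known to bind ACGTG. The windows are built as above, on GRCm38.p6, with matches to ACGTG on either strand in capitals: chr14:45318523-45318822 (Ero1a), chr6:82774405-82774704 (Hk2) and chr4:101419453-101419752 (Ak4, 1 of 4 windows of that gene and the one with a match).
Ero1a: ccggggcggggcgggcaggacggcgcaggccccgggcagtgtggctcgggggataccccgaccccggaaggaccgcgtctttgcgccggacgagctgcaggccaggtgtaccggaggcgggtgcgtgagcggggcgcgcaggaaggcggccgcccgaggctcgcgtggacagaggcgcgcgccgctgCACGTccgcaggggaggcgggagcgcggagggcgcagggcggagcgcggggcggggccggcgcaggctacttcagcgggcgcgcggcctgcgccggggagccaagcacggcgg
Hk2: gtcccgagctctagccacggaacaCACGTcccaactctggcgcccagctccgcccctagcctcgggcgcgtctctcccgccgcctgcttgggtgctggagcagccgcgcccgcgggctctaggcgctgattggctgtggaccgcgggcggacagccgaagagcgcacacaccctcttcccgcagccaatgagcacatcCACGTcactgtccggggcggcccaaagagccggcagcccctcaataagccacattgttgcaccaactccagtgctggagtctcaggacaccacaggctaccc
Ak4: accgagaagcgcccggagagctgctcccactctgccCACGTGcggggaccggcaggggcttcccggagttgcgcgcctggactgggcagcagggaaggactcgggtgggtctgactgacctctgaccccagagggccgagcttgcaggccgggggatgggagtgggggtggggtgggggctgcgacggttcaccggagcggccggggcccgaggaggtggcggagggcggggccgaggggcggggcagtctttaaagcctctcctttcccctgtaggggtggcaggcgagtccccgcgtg
Ero1a holds 1 match and Hk2 2, and the 2 of Ak4 overlap as a palindrome. These 3 were printed because they hold a match: among the other called genes of the same lists, Stc2 has 1 window and Eno1 has 3, and none of these held ACGTG. A match was present in 16 of 33 windows of the hypoxia genes (48.5%) and 18 of 36 windows of the glycolysis genes (50.0%). The share was 19.6% over all windows and 26.1% over windows of genes past the minimums. Over genes called higher it was 25.2%, and over genes called lower 20.4%. These lists were drawn from genes known to respond to hypoxia, so the shares describe the lists and not these libraries.

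Of 19 genes of the ATF4 and amino acid response 17 had a positive ratio and 4 were called higher, with a median of 0.54. The third library over WT gave these genes a median of 0.72, so the higher median is not particular to the library labelled Gata12KO. Sesn2, a stress-induced regulator of mTORC1, was at 1.78 and 6.34 FPKM (ratio 1.48). Trib3, a pseudokinase, was at 1.29 and 3.20 FPKM (ratio 1.04) and Chac1, which degrades glutathione, at 1.51 and 3.13 FPKM (ratio 1.02), and both calls were lost without the length trend. The remaining called member was Stc2, which is also counted among the hypoxia genes above. In the third library Sesn2 was at 5.64 FPKM, Chac1 at 2.74 and Trib3 at 0.840. WT was thus low against both for Sesn2 and Chac1, but not for Trib3. Asns, asparagine synthetase, was at 28.1 and 41.2 FPKM (ratio 0.73), and Atf4 RNA itself at 104 and 77.1 FPKM (ratio -0.17). Of 21 genes of the unfolded protein response 2 were called higher, Trib3 and Sdf2l1, an endoplasmic reticulum cochaperone, at 5.25 and 13.03 FPKM (ratio 1.62), with a list median of 0.31. Its central chaperone Hspa5 was at 132 and 162 FPKM (ratio 0.39). None of 23 sterol synthesis genes was called, 20 had a positive ratio, and the median was 0.43. Hmgcs1, an enzyme of the early pathway, was at 270 and 466 FPKM (ratio 0.79).

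Of 14 Hox genes past the minimums 5 were called higher and none lower, with a median of 0.74. Hoxd8 had an FPKM of 1.80 in WT against 5.58 in the library labelled Gata12KO (ratio 1.58). Hoxb1 was at 1.46 and 4.90 FPKM (ratio 1.42), Hoxd1 at 1.60 and 4.91 FPKM (ratio 1.40), Hoxb8 at 3.09 and 7.30 FPKM (ratio 1.10) and Hoxb6 at 9.16 and 15.5 FPKM (ratio 1.08). The FPKM of Hoxb6 differed by less than 2-fold, so its call rests on the length trend. All 5 belong to the Hoxb and Hoxd clusters, while Hoxb4, at 8.61 and 8.48 FPKM, and Hoxb5, at 20.5 and 17.6 FPKM, were level. Cdx2, a caudal factor that activates Hox genes, was at 1.68 and 5.71 FPKM (ratio 1.47) and at 16.7 in the third library. The streak and mesoderm gene Fgf8 had a ratio of 1.36 at 3.11 and 6.54 FPKM with overlapping bounds, and Foxh1, a nodal signalling factor, was at 3.34 and 10.2 FPKM (ratio 1.78). Id1, a BMP target, was the called gene of 26 in the BMP and TGF-beta list, at 19.6 and 28.0 FPKM (ratio 1.02), a call that was lost without the length trend.

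Among 24 imprinted genes, which are expressed from 1 parental copy, 4 were called lower and 1 higher, with a median of -0.10. Meg3 (chr12:110779206-110809939, plus strand), a long noncoding RNA of the maternal copy, had an FPKM of 18.4 in WT (17.1 to 19.6) and 0.749 in the library labelled Gata12KO (0.549 to 0.953), which is 24.5-fold lower with a ratio of -3.27. In the third library it was at 50.7 FPKM. Rian, a noncoding RNA downstream of Meg3, was at 3.42 and 0.384 FPKM (ratio -1.70), and Dlk1, the protein-coding gene of the same domain that the paternal copy expresses, at 54.6 and 23.2 FPKM (ratio -1.25). Peg13, a noncoding RNA on chromosome 15, was at 4.36 and 0.166 FPKM (ratio -2.27). Nnat, a paternally expressed membrane protein gene, was at 19.4 and 64.9 FPKM (ratio 2.11) and at 106 in the third library. Igf2, at 785 and 1304 FPKM, and Mest, at 732 and 1188 FPKM, had ratios of 0.70 and 0.78 and were not called. The maternally and the paternally expressed genes of the Dlk1 domain were therefore both lower.

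Ratios also differed by chromosome, a pattern noticed after the values were seen. On chromosome 8 the median of 609 genes was -0.32, 82.4% of ratios were negative, and 23 genes were called lower and 5 higher. Every 10-Mb window of that chromosome had a negative median. Measured against the third library in place of WT, the median of chromosome 8 in the library labelled Gata12KO was -0.38, while the third library over WT, which shares the WT values, gave 0.01. On chromosome 14 the median of 392 genes was 0.28, with 21 called higher and 9 lower. The windows were uneven: all 24 genes of the first 10-Mb window and all 46 genes from 30 to 40 Mb had a positive ratio, with medians of 0.54 and 0.62. From 20 to 30 Mb the median was 0.50, and from 50 to 60 Mb it was 0.33, with 61 of 89 ratios positive. The windows from 10 to 20 Mb and from 40 to 50 Mb had medians of -0.06 and 0.04. Chromosome medians of the other 18 ran from -0.11 to 0.06. With chromosomes 8, 14 and Y left out, 116 genes were called higher and 134 lower of 9758 compared. DNA content of the lines was not measured here, and its part in the pattern was not tested.

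**Figure D5:**
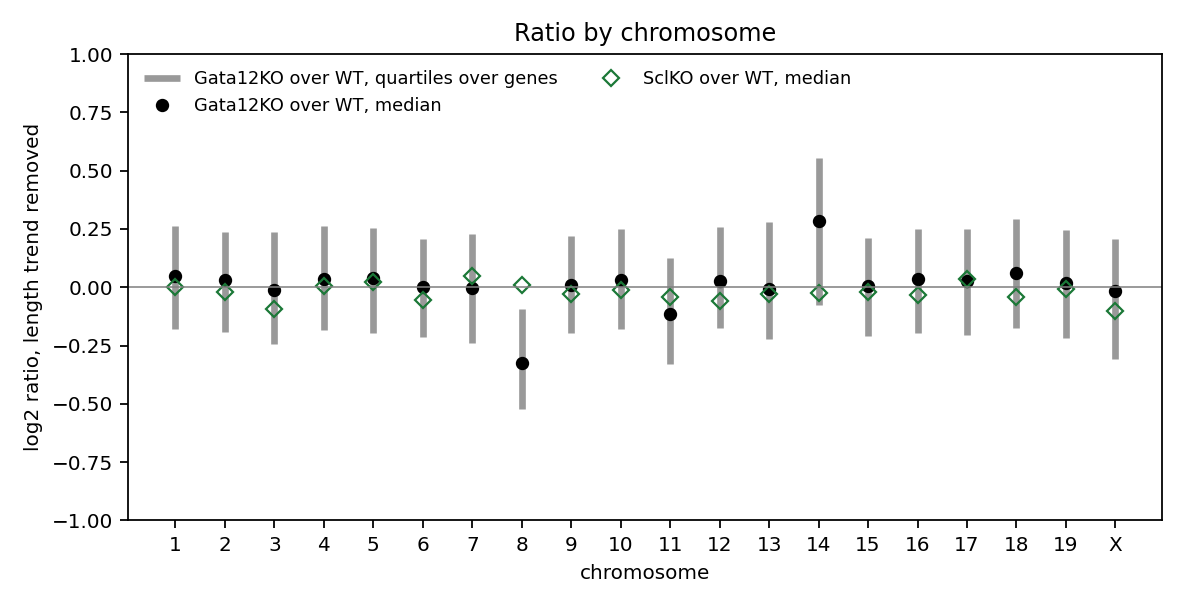
Median log2 ratio of genes by chromosome (black points, Gata12KO over WT, with grey bars for the quartiles over genes) beside the median of the third library over WT (green diamonds), both with the length trend removed. Chromosome 8 at -0.32 and chromosome 14 at 0.28 stand apart for Gata12KO over WT, while the third library lies at 0.01 and -0.03 there.

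Among genes of chromosome 8 called lower, Adgrg1, an adhesion receptor of blood stem cells, had an FPKM of 9.37 in WT against 0.985 in the library labelled Gata12KO (ratio -2.41), past the local median of -0.39. Plcg2, a phospholipase of blood cells, was at 14.9 and 4.34 FPKM (ratio -1.63) and Tecr, a fatty acid reductase, at 359 and 117 FPKM (ratio -1.19, not called relative to its 50 nearest genes, whose median was -0.30). Y chromosome genes set WT apart: Eif2s3y was at 7.26 FPKM in WT against 39.4 in the library labelled Gata12KO, Ddx3y at 1.25 and 11.8 FPKM, and Uty at 0.954 and 10.9 FPKM. In the third library they stood at 34.3, 8.17 and 8.16 FPKM, so WT was low against both. Their X-linked counterparts Eif2s3x, at 60.3 and 60.7 FPKM, and Ddx3x, at 114 and 125 FPKM, were level. No ratio of a Y-linked gene was read as a response to the label.

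Lists of general cell state gave few calls. Over all genes compared 2.89% were called, so a short list with no call is not set apart by that. None of 24 proliferation genes was called (median 0.22), with Mki67 at 153 and 136 FPKM and Top2a at 84.4 and 125 FPKM. None of 10 housekeeping genes was called (median -0.01), and Eef1a1 had a ratio of -0.09. None of 11 MHC class I and interferon genes was called, although Ifitm3, an antiviral membrane protein gene, was at 147 and 55.3 FPKM (ratio -0.76). Of 72 nuclear genes of oxidative phosphorylation none was called, and the median of -0.11 was -0.65 before the length trend was removed. Hspb1, a small heat shock protein gene, was the called gene of 17 in the immediate early and stress list, at 12.5 and 2.24 FPKM (ratio -1.53).

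Other cell types and adhesion added single genes. Apoe, the lipid carrier, was called lower at 1100.2 and 398 FPKM (ratio -1.06), and Spink1, a protease inhibitor, higher at 7.89 and 14.7 FPKM (ratio 1.58, lost without the length trend) among 10 endoderm and epithelium genes. Of 9 pluripotency genes none was called, with Lin28a at 13.98 and 23.6 FPKM and Dppa4 at 25.2 and 9.96 FPKM (ratio -0.94). Among 11 integrin genes Itga1, a collagen receptor subunit, was higher at 1.95 and 6.11 FPKM (ratio 1.15), and Itga4, a fibronectin and VCAM1 receptor subunit, lower at 2.09 and 0.658 FPKM (ratio -1.09). Emp3, a small membrane protein gene, was at 36.3 and 5.47 FPKM (ratio -1.94), and Tmod1, which caps actin filaments in red cells and muscle, at 8.08 and 1.62 FPKM (ratio -1.74). Pop4, a subunit of RNase P, was at 13.2 and 40.8 FPKM (ratio 1.97), Pusl1, a pseudouridine synthase-like gene, at 1.72 and 6.81 FPKM (ratio 1.93) and Slc26a10 at 1.36 and 5.87 FPKM (ratio 1.67). Fmr1nb was at 8.76 and 0.471 FPKM (ratio -2.16), with wide bounds in WT (6.35 to 12.5).

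Medians of the lists described by single genes stood near that of all genes in most cases. The median was 0.20 for VEGF, angiopoietin and apelin signalling, -0.01 for endocardial, -0.05 for contractile (-0.53 before the length trend was removed), -0.13 for integrin and 0.04 for BMP and TGF-beta genes. It was -0.02 for endoderm and epithelium, 0.23 for pluripotency, -0.12 for immediate early and stress and -0.27 for MHC class I and interferon genes. Of 8 caudal factors and Hox cofactors and of 7 primitive streak and mesoderm genes, Cdx2 was in each the called member, with medians of 0.01 and 0.61. Of 10 neuroectoderm genes 1 passed the minimums and it was not called. Of 8 sex-linked genes the 3 Y-linked ones were called, with a median of 0.39.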

How the data were processed

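Total RNA of sorted endothelial cells was measured by RNA-seq, with 50 nt reads, in 3 libraries, 1 a group. The authors deposited an FPKM value with its lower and upper bound for each of 30123 RefSeq entries a library. Per the submitters' processing notes the tools included Cuffdiff, Cufflinks 2.0.1 and TopHat2 2.0.4, and hg19 and mm9 are both listed as builds. Chromosome names are those of mm9. The sources used here do not say whether counting used strand, so an overlapping or antisense partner cannot be told apart from a gene. Of 29610 accessions, 29030 were named from a RefSeq table, 173 from a GENCODE table and 407 by neither. In the Gata12KO file 136 entries were joined by position and exon structure, and 134 whose symbols differed between files were left out. The FPKM and bounds of a gene are sums over its entries. Depth was read from the bounds of entries of at least 100 reads, taken as 2 Poisson standard deviations.

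A pseudocount of 1 was added, and a lowess curve of the log2 ratio on log2 length (fraction 0.3, 3 iterations; statsmodels 0.14.6, Python 3.11.15) was subtracted. The calling rule was tested on simulated libraries with counting error alone and a straight length trend. They held no spread between cultures, no division of reads among entries and no changed gene of low FPKM. The test therefore does not bear on these. Named genes are Gata1 and Gata2, the other GATA and FOG genes, the sort antigens, and the 15 highest and 15 lowest called genes whose higher library reached an FPKM of 5, leaving out unnamed models, pseudogenes and small RNA genes. From each of 40 lists up to 4 called members were added, or, with no call, up to 3 of the highest FPKM. Other list members, and genes named for their chromosome, were chosen after their values were seen. The members and lists were chosen with earlier results of these data known. Alternatives changed the trend, the scaling, the pseudocount (0.1 and 5), the filter, the length, the smoother, the bounds, the size limit and the chromosomes. Start windows are from a RefSeq table of GRCm38.p6, which held 8558 of the 10762 genes. No p-value is given, since each group has 1 library. Some list members are not reported here.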

Additional observations from a re-analysis of the deposited data

How the results depend on the processing

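No paired analysis was possible because each group has 1 library. Against 145 genes called higher and 166 lower, 81 and 411 were called with no trend removed, of which 71 and 150 were shared with the main calls, so that the share of lower calls went from 53.4% to 83.5%. It was 71.9% (125 and 320) with ratios centred on their median. Counts were 265 and 386 with a pseudocount of 0.1, 32 and 43 with 5, and 587 and 691 at a 1.5-fold limit. Scaled to the same summed FPKM with no trend removed, an alternative chosen after seeing the data, 261 and 207 were called, 44.2% of them lower, and the median gene moved by 0.18. Others added after seeing the data, leaving out chromosomes 8, 14 and Y or taking ratios to the 50 nearest genes, gave 116 and 134, and 120 and 155. Of 113 named genes 78 were called. None of the 78 changed direction with the trend, the pseudocount, the length or the smoother changed, or against the 50 nearest genes. With no trend removed that outcome was fixed in advance, because a call already needs bounds that are separate in its direction. It is therefore no check of those calls. Directions of single genes were not checked under the other alternatives, among them the scaling to the same summed FPKM. Calls were lost for 9 without the trend, among them H4c8, H4c2, Stc2 and Itga4. When centred they were lost for 9, mostly the same genes, with Rab27b and Col1a1 in place of H4c8 and Stc2. With a pseudocount of 5 they were lost for 46, among them Myb, Runx1, Spi1, Alas2 and Jag2. Some list medians changed sign with the scaling to the same summed FPKM: mesenchyme went from -0.31 to 0.02, imprinted genes from -0.10 to 0.02 and the SCL complex from -0.03 to 0.15. Lower counts of blood emergence factors were 6 or 7 except with an FPKM minimum of 5 (4) and a pseudocount of 5 (1). With a pseudocount of 5 the calls were also 3 lower for globins, 0 for platelet genes, 1 higher for hypoxia and 0 for Hox genes, and with no trend removed 1 higher in the ATF4 list and 8 lower in the leukocyte list. With no minimum FPKM 157 were called higher and 166 lower.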

Other observations

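Histone genes whose transcripts lack a poly(A) tail did not follow the length trend of other short transcripts. Of 60 replication-dependent histone genes 11 were called higher and 4 lower, with a median ratio of 0.66, but the median was -0.02 before the trend was removed, when 1 gene was called higher and 8 lower. H2bc11 had an FPKM of 579 in WT against 72.6 in the library labelled Gata12KO (ratio -2.19), H2bc23 98.7 and 23.7 FPKM (ratio -1.87), and H2bc22 52.9 and 8.83 FPKM (ratio -1.80). H2ac12 stood on the other side at 29.4 and 87.7 FPKM (ratio 2.33). H2ac24 was listed near 0 in WT and at 20.6 FPKM in the library labelled Gata12KO, with bounds that overlap. Histone genes have near-identical copies, so these values are uncertain. Cytoplasmic ribosomal protein genes could not be read: 73 of 78 were listed at 0 in both libraries.

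Cic, a transcriptional repressor, was called lower at 5.78 FPKM in WT against near 0 in the library labelled Gata12KO. An entry of the same coordinates with no symbol in the tables, NM_001110131, went from near 0 to 7.93 FPKM, so the locus as a whole was not lower. The entries with no symbol also held large values: NR_001592 (chr7:149761437-149764051) was at 1331 FPKM in WT, 86.1 in the library labelled Gata12KO and 710 in the third library, and NM_001168270 (chr9:108411810-108418272) at 77.9, 5.56 and 4.05 FPKM.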
